A study of Drosophila melanogaster with 6 samples.

Results

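The genes described here encode subunits of the mitochondrial oxidative phosphorylation (OXPHOS) complexes that are carried on nuclear chromosomes of Drosophila melanogaster. They were chosen by gene name in the count table: names that begin with ND-, COX and a digit, UQCR, ATPsyn or SdhA to SdhD, together with RFeSP and Cyt-c1. This rule took 82 of 17493 genes. Of these, 64 are main subunits and 18 are paralogs named after a main subunit with a closing L, which are described apart. RNA was measured in 3 libraries of larval salivary glands (SG) and 3 of brains plus imaginal discs (B-D). Both tissues came from y1 w67c23 larvae, a strain with marker mutations in the yellow and white genes and no transgene, which hatched from a 6 h egg lay at 25 °C and were dissected while feeding, early in the third instar, 4 days later. SG cells are developmental endocycling cells (devECs), which replicate their genome without division, and B-D hold many mitotic cycling cells. SG is a secretory tissue and B-D a mixture of neural and epithelial tissues, so cell cycle and tissue type cannot be told apart in this comparison.

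OXPHOS is the route by which mitochondria turn the oxidation of NADH and succinate into ATP. Complex I takes electrons from NADH and complex II takes them from succinate. Both pass them through ubiquinone to complex III, then by way of cytochrome c to complex IV, which reduces oxygen. The proton gradient made on the way drives complex V, the ATP synthase. Complex II is encoded by nuclear genes alone, while the other complexes join nuclear subunits to a few made inside the mitochondrion from its own genome. The subunit roles named here are those known from the mammalian enzymes.

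Library totals lay between 45023997 and 56583711 counts, and 3 counts, taken as the floor of a library, were worth 0.0530 to 0.0666 CPM, counts per 1000000 counts of the library. Levels are given as CPM after TMM scaling (trimmed mean of M values), which equalizes the bulk of genes between libraries, and its factors ranged from 1.458 to 1.466 for B-D and from 0.664 to 0.700 for SG. Of markers for the labelled tissues, 10 of 10 neuronal, 10 of 10 imaginal disc and 5 of 5 neuroblast markers were lower in SG, and 9 of 15 salivary gland markers were higher. Summed salivary gland markers reached 474 to 1284 CPM of the library total in B-D, where the glue genes Sgs5 and Sgs8 were at 0 in at least 1 library, and 12804, 23229 and 52052 CPM in SG replicates 1 to 3. Transcripts of the fat body, a neighbouring endocycling tissue, were abundant in SG libraries: its 10 markers summed to between 130962 and 185208 CPM of the library total in SG and to between 1155 and 6482 CPM in B-D, with 9 called higher and no marker at 0 in any library. Their part in the results below was not tested. In such bulk libraries, fewer cells of a type and less RNA per cell cannot be told apart.

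All 62 main subunit genes that could be tested were higher in SG than in B-D after TMM scaling. Their median log2 fold change (log2FC, SG over B-D) was 1.55, with a range from 0.97 for ND-20 to 2.01 for ATPsynF and an SD of 0.23 across genes. The test was edgeR's quasi-likelihood test with Benjamini-Hochberg adjustment over all genes, and a call needed a log2FC of at least 0.5 in either direction with an adjusted p up to 0.05. The largest adjusted p among the 62 was 0.00481, for ATPsynD. Over all 11369 genes tested, 34.5% were called higher and 35.3% lower, with a median log2FC of -0.03. In each of the 62 genes the lowest SG library lay above the highest B-D library, against 39.9% of all genes tested that were separated in that direction.

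**Figure D1:**
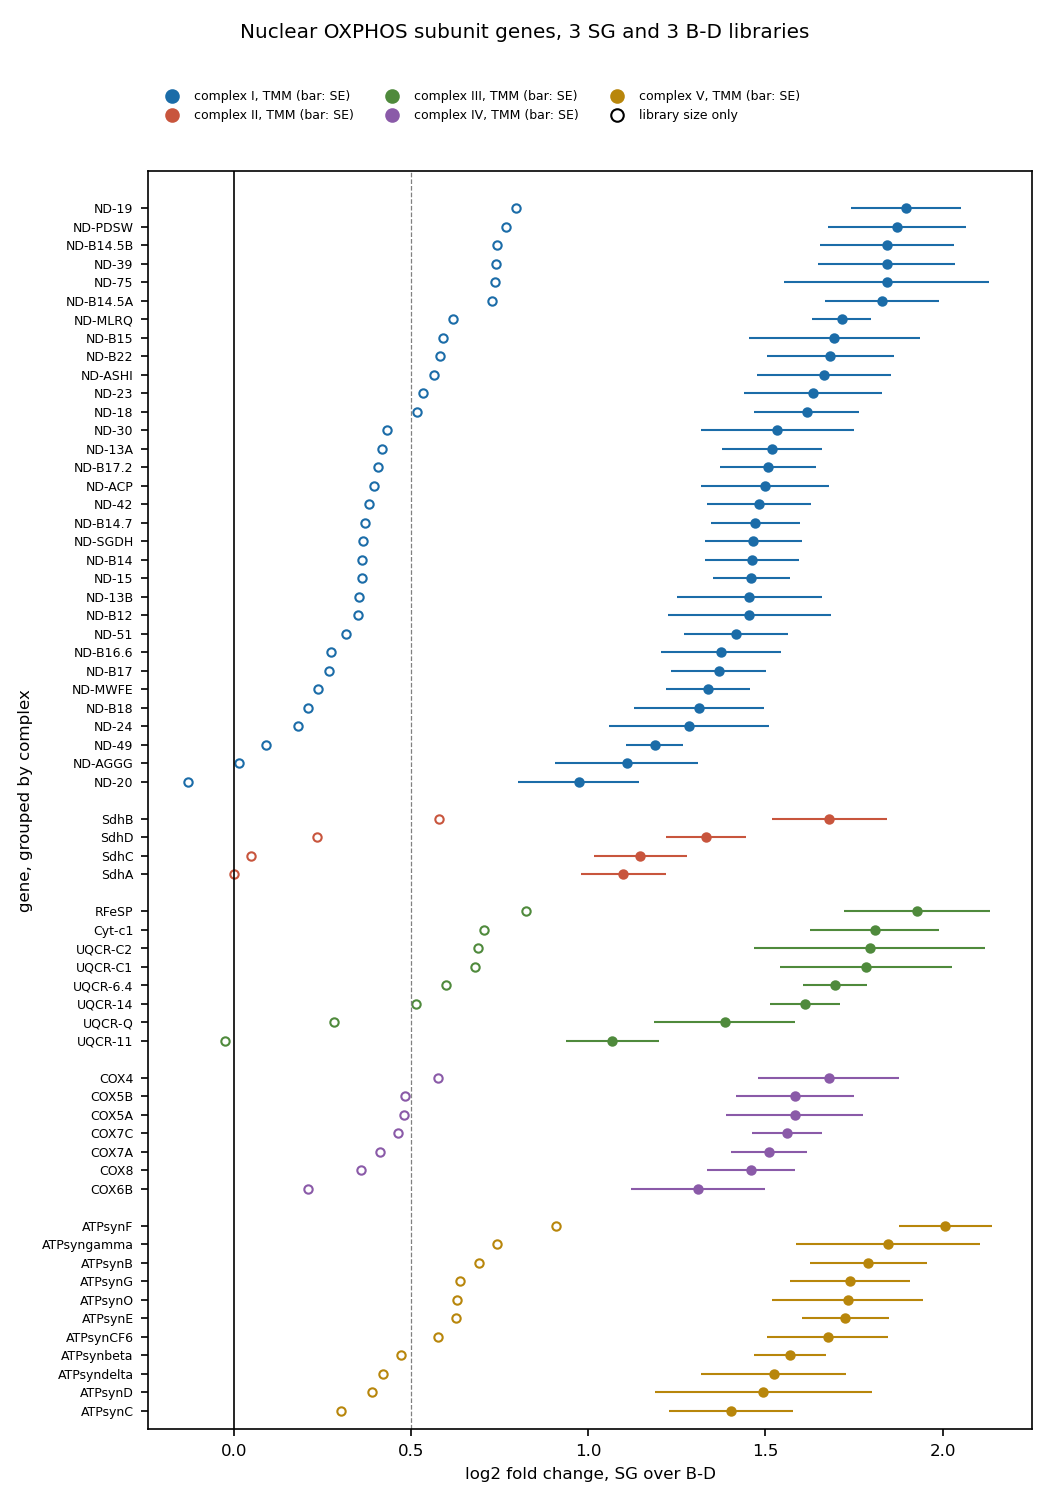
Log2FC of SG over B-D for the 62 main subunit genes tested, grouped by complex. Filled points are TMM-scaled with their standard error, open points use library size alone as the scale, and the dashed line marks 0.5. All filled points lie at 0.97 or above, while open points run from -0.13 to 0.91.

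The size of the difference rested on the scale. With the library total as the only scale, the median of all genes moved by -1.10. On this scale edgeR called 26 of the 62 main subunits higher and 0 lower, against 14.0% of all genes higher and 62.5% lower. At an unadjusted edgeR p under 0.05 with no limit on the log2FC, as in all such counts below, 39 were higher and 0 lower. The median log2FC of the 62 was then 0.45, beside -1.13 for all genes. On CPM of the library total, 38 of 62 genes were separated with SG above, 24 overlapped and 0 were separated with SG below, against 16.7% and 68.9% of all genes separated in these directions. With the 10 most abundant genes, among them Lsp1alpha, Lsp1beta, Lsp1gamma and apolpp of the fat body list, left out of the library total, edgeR called 54 main subunits higher and 0 lower (58 and 0 at an unadjusted p under 0.05), where 18.6% of all genes were higher and 53.5% lower. Under upper quartile scaling all 62 were called higher, beside 30.2% of all genes higher and 39.6% lower. A change of scale moves all genes by nearly the same amount. The gap between the median of the main subunits and that of all genes therefore cannot change with it. The number of single genes past the threshold varied with the scale.

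Shares of the library total need no scaling factor, but they depend on the other genes in that total. Main subunits took 0.849%, 0.797% and 0.747% of all counts in replicates 1 to 3 of B-D. In SG they took 1.177%, 1.138% and 0.944%. Every SG library was above every B-D library, and SG replicate 3 came nearest to the B-D range. The means were 0.798% ± 0.0510 (SD, n = 3) in B-D and 1.09% ± 0.125 (SD, n = 3) in SG, a ratio of 1.36. Without the mitochondrial genome in the total, the means were 0.895% and 1.25%. Without the 10 most abundant genes in the total, they were 0.888% in B-D and 1.54% in SG, a ratio of 1.73.

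**Figure D2:**
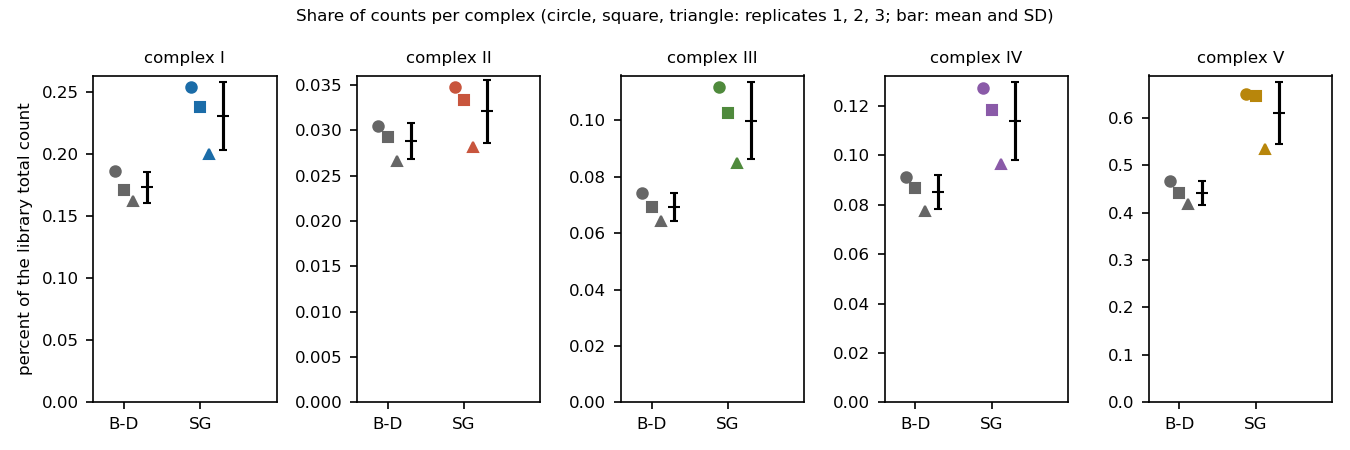
Percent of the library total count taken by the main subunits of each complex in 3 B-D and 3 SG libraries, with mean and SD beside the points. Complexes I, III, IV and V lie higher in every SG library, and the libraries of complex II overlap.

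Complex I, NADH dehydrogenase, has the most members, and 32 of its 34 main genes could be tested. All 32 were higher, with a median log2FC of 1.49. On the library total 12 of them were called, where 14.0% of all genes were called higher. ND-51, the flavoprotein subunit where NADH is oxidized, was at 70.7, 63.0 and 61.0 TMM-scaled CPM in replicates 1 to 3 of B-D and at 200.5, 176.5 and 142.6 in SG. All 3 SG libraries lay well above B-D, and the log2FC was 1.42 ± 0.15 (SE; adjusted p = 0.000299). Its log2FC was 0.32 on the library total, where it was not called. ND-75, which carries iron-sulfur clusters that take electrons onward, was at 44.2, 44.6 and 31.8 in B-D and at 188, 151 and 92.6 in SG. Replicate 3 was the lowest in both tissues, and the log2FC was 1.84 ± 0.29 (adjusted p = 0.00154).

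ND-49, a core subunit beside the ubiquinone site, gave a smaller and more even difference. It was at 137, 130.2 and 140.4 TMM-scaled CPM in B-D and at 306, 319 and 303 in SG, a log2FC of 1.19 ± 0.08 (adjusted p = 7.3e-05). On the library total its log2FC was 0.09. The smallest difference of the complex was in ND-20, which carries the last iron-sulfur cluster before ubiquinone, with 52.7, 48.4 and 44.4 in B-D and 111, 101 and 73.6 in SG. The tissues did not overlap and the log2FC was 0.97 ± 0.17 (adjusted p = 0.00240), but the sign turned to -0.13 on the library total. ND-AGGG, an accessory subunit of the membrane arm, was at 6.33, 5.93 and 6.82 in B-D and at 12.6, 11.0 and 17.5 in SG, with SG replicate 3 the highest. Its log2FC was 1.11 ± 0.20 after TMM scaling and 0.02 on the library total.

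The largest differences of complex I were in accessory subunits. ND-19 was at 30.9, 25.9 and 25.1 TMM-scaled CPM in B-D and at 116, 105 and 83.6 in SG, a log2FC of 1.90 ± 0.16 (adjusted p = 0.000135). ND-PDSW had a log2FC of 1.87 ± 0.19 (adjusted p = 0.000304). Both were also called on the library total, at 0.80 and 0.77. ND-MLRQ had the smallest p of the complex and the highest level per kilobase. It was at 113, 106 and 113 in B-D and at 349.8, 361 and 377 in SG, with no fall in replicate 3, and its log2FC was 1.72 ± 0.08 (adjusted p = 3.57e-05). The rule counts it with complex I by name, and its mammalian counterpart was later placed in complex IV.

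The remaining main genes of complex I gave almost no counts. ND-B8 had 2, 7 and 5 counts in B-D and 0, 0 and 2 in SG, too few to be tested. ND-MNLL was at 0 in all 6 libraries, and its exons lie to 100% under exons of CG45089 on the same strand, which was also at 0 in all. A read there cannot be given to one of the pair, so the count of 0 does not describe transcription of ND-MNLL.

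Complex II, succinate dehydrogenase, also belongs to the citric acid cycle. All 4 subunits were higher after TMM scaling, with a median log2FC of 1.239. On the library total the median was 0.14 and 1 of 4 was called, where 14.0% of all genes were called higher. SdhA, the flavoprotein that oxidizes succinate, was at 103, 101 and 93.2 TMM-scaled CPM in B-D and at 231, 224 and 181 in SG. SG libraries were all higher, and the log2FC was 1.10 ± 0.12 (adjusted p = 0.000361), but it was -0.000793 on the library total. SdhB, the iron-sulfur subunit, was the exception, with 36.0, 34.0 and 30.5 in B-D and 131, 103 and 88.9 in SG. Its log2FC was 1.68 ± 0.16 (adjusted p = 0.000233) and 0.58 on the library total, where it remained called. The membrane anchors SdhC and SdhD had log2FC of 1.15 ± 0.13 and 1.33 ± 0.11 (adjusted p = 0.000437 and 0.000147).

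Counts of complex II per count of complex I were lower in SG. This ratio within a library does not depend on a scaling factor, and it was 0.164, 0.172 and 0.165 in replicates 1 to 3 of B-D and 0.137, 0.140 and 0.141 in those of SG. Each SG library lay below each B-D library. The same ratio for complex III was higher in SG, at 0.398, 0.404 and 0.398 in B-D and at 0.440, 0.432 and 0.425 in SG. For complex IV it was 0.479 to 0.507 in B-D libraries and 0.482 to 0.501 in SG libraries, and for complex V 2.51 to 2.58 and 2.56 to 2.72, with overlap in both. These sums weigh the most abundant genes of each complex most, and no test was run on them.

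Complex III, which passes electrons from ubiquinol to cytochrome c, had 8 of 8 members higher and the highest median log2FC of the complexes, 1.74, followed by 1.73 in complex V. On the library total 5 of the 8 were called, beside 14.0% of all genes called higher. RFeSP, the Rieske iron-sulfur protein, was at 30.1, 29.9 and 23.8 TMM-scaled CPM in B-D and at 129.9, 109 and 79.9 in SG. Replicate 3 was again the lowest in each tissue, and the log2FC was 1.93 ± 0.21 (adjusted p = 0.000335). Cyt-c1, the heme protein that hands electrons to cytochrome c, was at 93.2, 86.1 and 77.5 in B-D and at 363, 302 and 235 in SG, a log2FC of 1.81 ± 0.18 (adjusted p = 0.000264).

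UQCR-C1, a core protein on the matrix side, was at 104, 95.02 and 79.6 in B-D and at 407, 331 and 223 in SG. The tissues were separated by a wide gap even though SG libraries spread over a wide range, and the log2FC was 1.78 ± 0.24 (adjusted p = 0.000851). UQCR-6.4, a small subunit, had the smallest p of the complex, with a log2FC of 1.70 ± 0.09 (adjusted p = 4.3e-05). UQCR-11, the hinge protein that docks cytochrome c, had the smallest difference, with 81.0, 81.8 and 91.0 in B-D and 153, 173 and 206 in SG. Here replicate 3 was the highest in both tissues, and the log2FC of 1.07 ± 0.13 (adjusted p = 0.000559) became -0.02 on the library total. UQCR-Q had a log2FC of 1.38 ± 0.20, and UQCR-14 one of 1.61 ± 0.10. The exons of UQCR-14 lie to 100% under CG32576 on the other strand and 40.5% of those of UQCR-6.4 are overlapped, so both depend on a strand setting that is not given in the sources used here.

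Complex IV, cytochrome c oxidase, keeps its catalytic subunits in the mitochondrial genome, and the nuclear members surround that core. All 7 were higher, within the narrow range of 1.31 for COX6B to 1.68 for COX4, and the median was 1.56. COX4 was at 80.2, 72.6 and 62.3 TMM-scaled CPM in B-D and at 277, 237 and 174 in SG, a log2FC of 1.68 ± 0.20 (adjusted p = 0.000495). It was the 1 of 7 members of complex IV that passed on the library total, at 0.58. That count is near the 14.0% of all genes called higher on this scale. COX5A was at 92.2, 82.3 and 77.4 in B-D and at 314, 247 and 193 in SG, a log2FC of 1.58 ± 0.19 (adjusted p = 0.000555). COX7C had the smallest p of the complex, with a log2FC of 1.56 ± 0.10 (adjusted p = 6.4e-05). COX5B and COX8 were at log2FC of 1.58 ± 0.17 and 1.46 ± 0.12. On CPM of the library total, 6 of the 7 were separated with SG above, against 16.7% of all genes. The log2FC on this scale ran from 0.21 (COX6B) through 0.41 (COX7A) to that of COX4.

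Complex V, the ATP synthase, had 11 of 11 members higher and 7 called on the library total, beside 14.0% of all genes called higher there. ATPsynbeta, the catalytic subunit of the headpiece, was at 1422, 1322 and 1392 TMM-scaled CPM in B-D and at 4119, 4243 and 3901 in SG. Its libraries were close together within each tissue, and the log2FC was 1.57 ± 0.10 (adjusted p = 6.7e-05). ATPsynC, which forms the rotating ring of the membrane part, was at 969, 929.6 and 821 in B-D and at 2758, 2556 and 1876 in SG, a log2FC of 1.40 ± 0.18 (adjusted p = 0.000611). Together these genes took 41.9% ± 1.29 (SD, n = 3) of main subunit counts in B-D and 40.9% ± 2.03 (SD, n = 3) in SG, with overlapping libraries. Without them the other main subunits took 0.464% of counts in B-D and 0.643% in SG.

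ATPsynF, a small membrane subunit, had the largest log2FC of all main subunits. It was at 63.3, 59.4 and 54.6 TMM-scaled CPM in B-D and at 259, 253 and 201 in SG, a log2FC of 2.01 ± 0.13 (adjusted p = 6.9e-05) and 0.91 on the library total. ATPsyngamma, the central shaft, was at 157, 145 and 112 in B-D and at 625, 525 and 339 in SG, a log2FC of 1.85 ± 0.26 (adjusted p = 0.000991). ATPsynD, part of the outer stalk, had the largest standard error of the complex: it was at 87.4, 78.3 and 58.8 in B-D and at 279, 222 and 130.4 in SG. The tissues still did not overlap, and the log2FC was 1.49 ± 0.31.

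**Figure D3:**
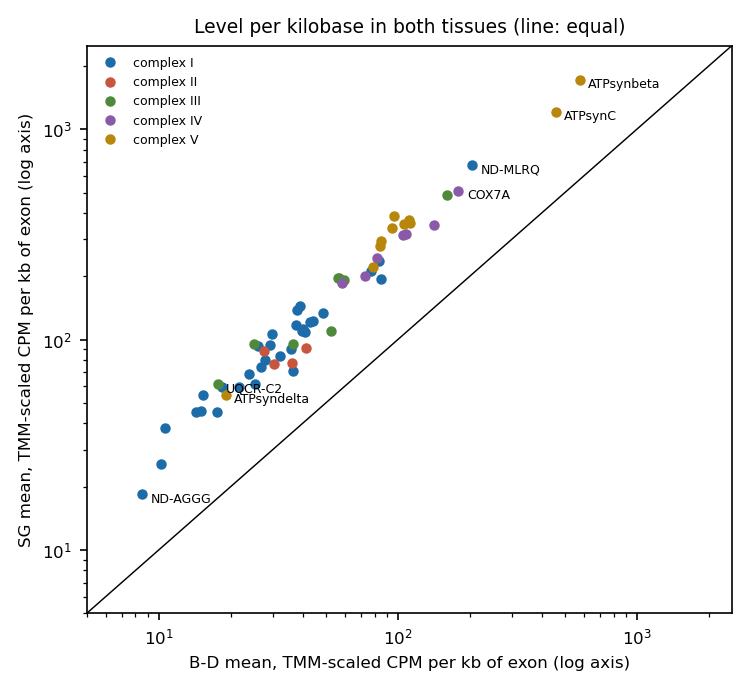
Mean TMM-scaled CPM per kilobase of exon in B-D and SG (both axes logarithmic) for the 62 main subunit genes tested, coloured by complex, with a line of equal levels. Every point lies above the line, from ND-AGGG at 8.54 and 18.4 to ATPsynbeta at 578 and 1713.

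Levels of different genes were compared per kilobase of exon. The order of the genes was much the same in both tissues, with Pearson's r = 0.98 and Spearman's rho = 0.97 between the log2 levels of B-D and SG over the 62 genes, which share libraries and gene lengths and are no independent replicates. Subunits of complex I differed widely, from 8.54 TMM-scaled CPM per kb for ND-AGGG to 205 for ND-MLRQ in B-D and from 18.4 to 674 in SG. The 4 subunits of complex II lay closest together, from 27.5 to 41.3 in B-D and from 76.3 to 91.5 in SG. Median levels per kb in SG were 92.0 in complex I, 82.6 in complex II, 151 in complex III, 316 in complex IV and 355 in complex V. Within complex V, ATPsyndelta was the lowest, at 19.1 in B-D and 54.8 in SG, and ATPsynbeta the highest. In complex IV the range ran from COX4 (58.2 and 186) to COX7A (179 and 511), and in complex III from UQCR-C2 (17.7 and 61.4) to UQCR-14 (159.98 and 489).

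The 18 paralogs with a closing L gave few reads. Many genes of this kind in the fly are expressed mainly in the testis. ND-20L, ND-B14.5AL and UQCR-14L were at 0 in all libraries, 12 of the 18 could not be tested, and none reached more than 1.36% of the counts of its main subunit in any library. Of the 6 tested, 3 were called lower in SG, 1 higher and 2 neither, which is no more than a description of 6 genes where 35.3% of all genes were lower and 34.5% higher. ATPsynepsilonL had 31, 26 and 16 counts in B-D and 1, 0 and 1 in SG, where its main subunit sun rose. Its summed count relative to the TMM-scaled totals was 16.4 times higher in B-D (95% counting interval 4.37 to 138, edgeR adjusted p = 0.00206), and 35.1 times higher (9.36 to 295) relative to library totals.

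COX4L had 39, 46 and 39 counts in B-D and 3, 8 and 10 in SG, with all SG libraries lower. Its log2FC was -1.40 ± 0.45 (adjusted p = 0.0296), and the call was lost when any of B-D replicates 1 to 3 or SG replicate 2 was left out. COX5BL had 28, 27 and 17 counts in B-D and 3, 2 and 7 in SG, a log2FC of -1.43 ± 0.50 (adjusted p = 0.0382). Its exons lie to 100% under Trmt6 on the other strand, and the call was lost with a replicate block (adjusted p = 0.107) and without B-D replicate 1 or 2 or SG replicate 1 or 2. UQCR-11L went the other way, with 20, 6 and 10 counts in B-D and 22, 20 and 19 in SG and a log2FC of 1.93 ± 0.39 (adjusted p = 0.00447), but it was not called on the library total (0.84). ATPsynbetaL, the most abundant of them, had 217, 191 and 169 counts in B-D and 123, 100 and 187 in SG. Its log2FC was 0.65 ± 0.27 (adjusted p = 0.0675) and had the opposite sign, -0.44, on the library total, and without SG replicate 2 it was called, at 0.81. SdhBL had 7, 14 and 33 counts in B-D and 7, 2 and 11 in SG, which overlapped, and a log2FC of -0.29 ± 0.74 (adjusted p = 0.736).

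Other subunits have names that the rule does not take. Of 9 such genes listed, 8 were tested, 7 were higher and 1 lower, with a median log2FC of 1.57. On the library total 3 were higher and 1 lower, beside 14.0% and 62.5% of all genes. blw, the alpha subunit of the ATP synthase, was at 509, 488 and 412 TMM-scaled CPM in B-D and at 1702, 1539 and 1100.5 in SG, a log2FC of 1.62 ± 0.19 (adjusted p = 0.000513). sun, the epsilon subunit, had a log2FC of 1.74 ± 0.16, and CG13551, related to the inhibitor of the ATP synthase, one of 1.62 ± 0.14. levy and cype, subunits of complex IV, had log2FC of 1.44 ± 0.22 and 1.56 ± 0.18, and ox, of complex III, one of 1.57 ± 0.15. Cytochrome c is encoded by a pair of genes. Cyt-c-p, the form of most tissues, was at 114, 109.6 and 94.999 in B-D and at 330.1, 337 and 264 in SG, a log2FC of 1.55 ± 0.14 (adjusted p = 0.000166). Cyt-c-d, known for its role in the testis, was near the floor, with 52 counts in all B-D libraries and 8 in all SG libraries, and its log2FC of -1.53 ± 0.48 (adjusted p = 0.0259) was no longer called with a replicate block (adjusted p = 0.0757) or when any of B-D replicates 1 to 3 or SG replicates 2 or 3 was left out.

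Genes that feed, build or regulate the complexes were compared with them in the same fit. All 16 genes of pyruvate dehydrogenase and the citric acid (TCA) cycle were higher, with a median log2FC of 1.51. On the library total edgeR called 6 higher and 0 lower, beside 14.0% and 62.5% of all genes. With no limit on the log2FC, 2 were lower there at an unadjusted edgeR p under 0.05. ScsbetaG, a subunit of succinyl-CoA synthetase, had the smallest p, at 43.3, 35.5 and 39.7 TMM-scaled CPM in B-D and 247, 228 and 211 in SG, a log2FC of 2.53 ± 0.12 (adjusted p = 3.3e-05). Counts of OXPHOS main subunits per count of this list were 2.93 to 3.05 in B-D libraries and 3.04 to 3.17 in SG libraries, which overlapped. Of 10 assembly factors tested, 8 were higher and 1 lower, beside 34.5% and 35.3% of all genes. Their median was 0.92, which turned to -0.18 on the library total. On CPM of the library total, 2 were separated with SG above and 5 with SG below, beside 16.7% and 68.9% of all genes. CIA30, an assembly factor of complex I, was higher, with a log2FC of 1.595 ± 0.107 (adjusted p = 7.3e-05). Sirup, an assembly factor of complex II, was the 1 lower gene, at 31.3, 26.4 and 38.4 in B-D and 13.5, 14.4 and 19.2 in SG, a log2FC of -1.03 ± 0.20 (adjusted p = 0.00361). The SG libraries of Sirup all lay below those of B-D. Sdhaf3, another assembly factor of complex II, named after its values were seen, was higher, at 6.12, 5.20 and 5.04 in B-D and 10.3, 8.81 and 9.02 in SG, a log2FC of 0.78 ± 0.15 (adjusted p = 0.00327) that turned to -0.31 on the library total.

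Of 6 mitochondrial carriers and porins, 3 were higher and 3 lower, beside 34.5% and 35.3% of all genes. On the library total edgeR called 0 higher (0 at an unadjusted p under 0.05) and 3 lower, beside 14.0% and 62.5% of all genes. Mpcp2, a phosphate carrier, was higher after TMM scaling, with a log2FC of 1.26 ± 0.11 (adjusted p = 0.000192), and at 0.16 on the library total. Of 9 tested regulators of nuclear and mitochondrial genes for mitochondria, 8 were lower on the library total, beside 62.5% of all genes. After TMM scaling 2 were higher (1 without SG replicate 1) and 1 lower, beside 34.5% and 35.3% of all genes, with a median of -0.12. ewg, the fly relative of nuclear respiratory factor 1 and a known neuronal gene, was the 1 called lower, at 125, 125 and 149 TMM-scaled CPM in B-D and 34.4, 27.5 and 45.5 in SG, a log2FC of -1.90 ± 0.20 (adjusted p = 0.000335).

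**Figure D4:**
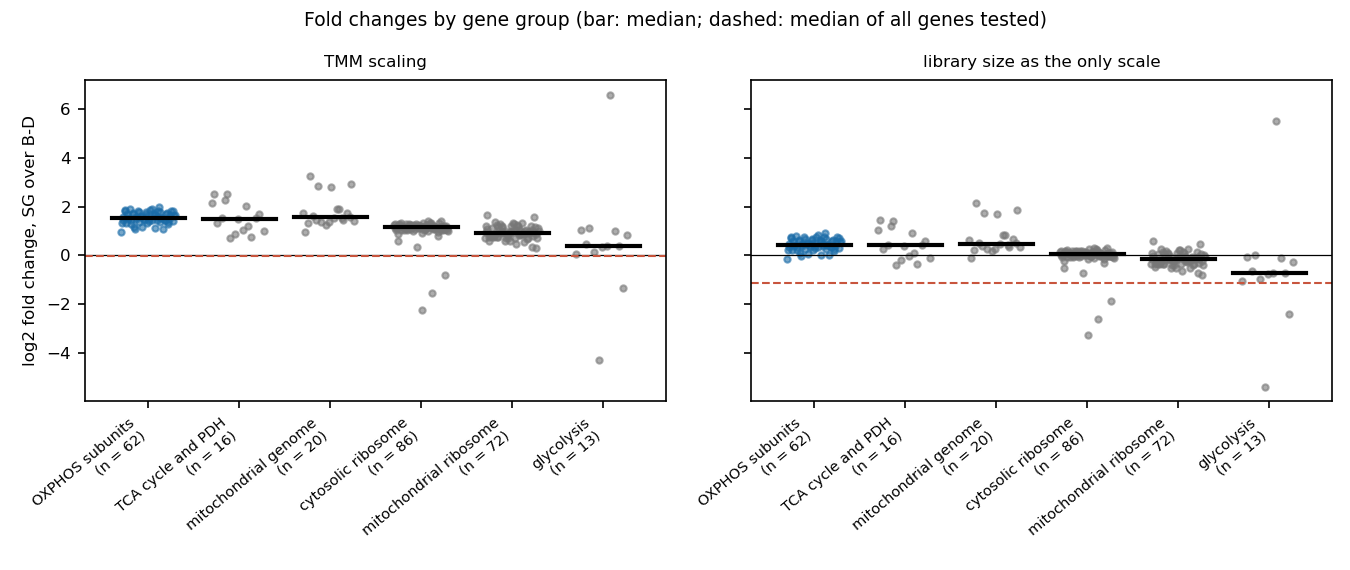
Log2FC of SG over B-D for the genes tested in 6 groups, after TMM scaling (left) and scaled by library size alone (right). Bars are medians and the dashed line is the median of all genes tested, at -0.03 on the left and -1.13 on the right, with OXPHOS subunits at 1.55 and 0.45.

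OXPHOS genes were set beside other large groups of growth and energy genes. Mitochondrial ribosomal protein genes were called higher in 68 of 72 and lower in 0 (69 and 0 at an unadjusted p under 0.05, and 68 and 0 by DESeq2 and limma-voom), but their median log2FC was 0.93, against 1.55 for OXPHOS, and it was -0.17 on the library total. Their gene with the smallest p, mRpS7, had a log2FC of 0.99 ± 0.07 (adjusted p = 9.2e-05), which was -0.11 on the library total. Counts of OXPHOS main subunits per mitochondrial ribosomal protein count were 4.96, 5.05 and 4.96 in B-D and 7.47, 7.42 and 7.82 in SG. This ratio was thus 1.52 times higher in SG, with closely spaced libraries in each tissue. Cytosolic ribosomal protein genes were higher in 82 of 86 and lower in 3, with a median of 1.16, and at 0.05 on the library total. There edgeR called 0 higher (2 at an unadjusted p under 0.05) and 5 lower, beside 14.0% and 62.5% of all genes. RpL37A had the smallest p among them, with a log2FC of 1.2405 ± 0.093 (adjusted p = 0.000101). The 3 lower genes were the rare copies RpL22-like, RpS5b and RpS19b, with log2FC of -2.22, -1.54 and -0.80. RpS19b lost its call under DESeq2 (adjusted p = 0.0707), with a replicate block (edgeR adjusted p = 0.0547) and without B-D replicate 2 or 3 or SG replicate 2. The OXPHOS count per cytosolic ribosomal protein count was 0.101 to 0.104 in B-D libraries and 0.131 to 0.137 in SG libraries, again without overlap.

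Of 13 glycolysis genes, 5 were higher (8 without SG replicate 3) and 2 lower, with a median log2FC of 0.38, beside 34.5% of all genes called higher and 35.3% lower. On the library total 1 was higher and 8 lower, beside 14.0% and 62.5% of all genes, so the share lower was near that of all genes. Pfk, the enzyme of the committed step, was at 190.3, 203 and 187 TMM-scaled CPM in B-D and at 84.7, 76.3 and 71.7 in SG, a log2FC of -1.32 ± 0.09 (adjusted p = 9.2e-05). Ldh, which turns pyruvate into lactate, was at 188, 213 and 199 in B-D and at 12.5, 5.94 and 12.3 in SG, a log2FC of -4.29 ± 0.32 (adjusted p = 0.000101). Counts of OXPHOS main subunits per glycolysis count were 1.28, 1.15 and 1.18 in B-D and 2.48, 2.82 and 2.71 in SG, a ratio of 2.22 between the means, and the tissues did not overlap. Hex-C, a hexokinase named after its values were seen, was the 1 gene of the list called higher on the library total, at 5.51. It had 58, 14 and 24 counts in B-D and 1766, 1132 and 1254 in SG, a log2FC of 6.61 ± 0.49 (adjusted p = 9.72e-05).

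Of 20 transcripts of the mitochondrial genome tested, 19 were higher, with a median log2FC of 1.56. The 13 that encode proteins, the partner subunits of complexes I, III, IV and V, were all higher, with a median of 1.53. On the library total their median was 0.43, and 2 of them (mt:ATPase6 and mt:ND5) were called, near the 14.0% of all genes called higher there. The other 7 were 2 ribosomal RNAs and 5 transfer RNAs, and the 5 transfer RNAs, at 3 to 327 counts per library, were the remaining calls on the library total. On CPM of the library total, 13 of the 20 transcripts were separated with SG above and 0 with SG below. Of all genes, 16.7% and 68.9% were separated in these directions. The gene with the smallest p was the transfer RNA mt:tRNA:Trp-TCA, with a log2FC of 2.81 ± 0.17 (adjusted p = 5.6e-05). The libraries select polyadenylated RNA, which takes up mitochondrial ribosomal and transfer RNA unevenly. Nuclear main subunits per mitochondrial genome count were 0.0807, 0.0724 and 0.0669 in B-D and 0.102, 0.0942 and 0.0609 in SG, so the tissues overlapped and SG replicate 3 was the lowest of all.

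**Figure D5:**
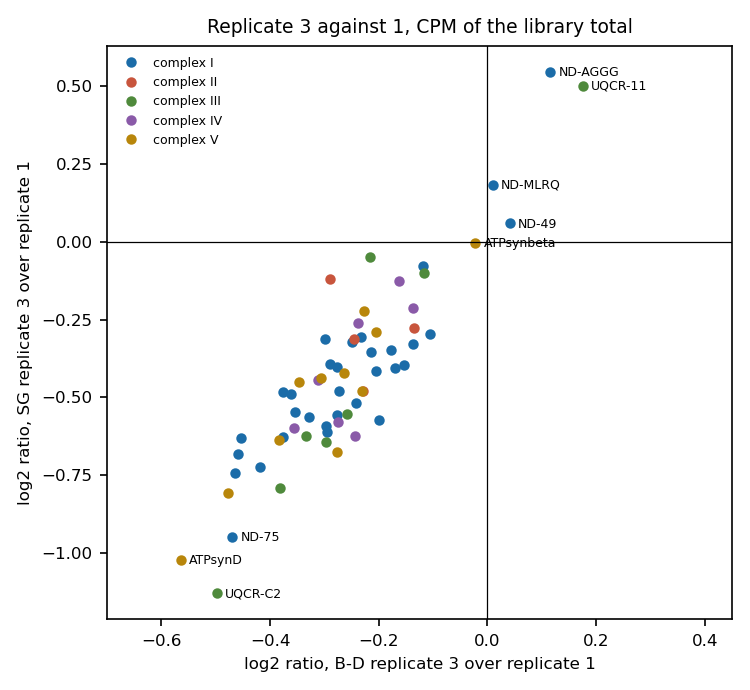
Log2 ratio of replicate 3 to replicate 1, on CPM of the library total, in SG (vertical) and B-D (horizontal) for the 62 main subunit genes tested. Most points lie below 0 on both axes, and UQCR-11, ND-AGGG, ND-MLRQ and ND-49 lie above 0 in SG.

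Main subunits varied together between replicates. On CPM of the library total, SG replicate 3 was the lowest SG library in 57 of the 62 genes and SG replicate 1 the highest in 47, while B-D replicate 3 was the lowest in 52 and B-D replicate 1 the highest in 54. The median log2 ratio of replicate 3 to replicate 1 was -0.45 in SG and -0.27 in B-D, beside 0.02 and -0.01 over the 8005 genes with at least 1 CPM in these 4 libraries. UQCR-C2 (-1.13), ATPsynD (-1.02) and ND-75 (-0.95) fell the most in SG. Across the 62 genes the ratios in SG and B-D were related with Pearson's r = 0.90 and Spearman's rho = 0.83, against 0.43 and 0.58 over the 8005 genes. This describes 4 libraries, since genes of a library share its depth and handling. Summed salivary gland markers went the other way from the main subunits, being the highest in replicate 3 of both tissues. Summed fat body markers were at 185208, 155872 and 130962 CPM of the library total in SG replicates 1 to 3, in the order of the main subunit share, and at 6482, 1155 and 2579 in those of B-D, where replicate 1 was also the highest. The part of either tissue's transcripts was not tested. The tissue difference remained called in all 62 genes when any single library was left out, with the median log2FC between 1.44 without SG replicate 1 and 1.69 without SG replicate 3.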

How the data were processed

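Per the labels and the study's methods, polyadenylated RNA was made into stranded libraries and sequenced single-end, reads were checked with FastQC 0.11.5, aligned with STAR 2.6.1a to fly genome Release 6 and counted per gene with featureCounts. The strand setting is not given in the sources used here. Whole-number counts as the authors deposited them, without any normalization, and each gene's exon length were used. They also deposited their own DESeq2 1.14.1 fold changes and p-values, which were not used. Exon lengths were equal to those of Ensembl release 115 for 81 of 82 members, which gave the overlaps of exons.

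Counts were tested with edgeR 4.0.16 (R 4.3.3): filterByExpr, TMM scaling and a quasi-likelihood F test with tissue as the only term, adjusted over 11369 genes. SE is the log2FC divided by the square root of the F statistic. The fits were checked on simulated data in which few genes changed, as many up as down. That check does not cover the scaling between tissues as unlike as these. No replicate pair of a tissue agreed within sampling noise (chi-square per degree of freedom 38.0 to 539). The study calls the replicates biological and took both tissues from the same larvae, so same-numbered libraries were taken as pairs, although no source states what a number marks. Their deviations from the tissue means correlated at 0.33, 0.0769 and 0.222. Libraries of unlike number ran from -0.358 to 0.229. The highest of these was B-D replicate 2 with SG replicate 3, so the values do not settle the pairing of replicates 2 and 3. The study's methods name no replicate term, so none was in the test, and a replicate block was an alternative. Reads carry no molecular identifiers, so intervals and floors cover counting error only.

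Members and lists were chosen with earlier results of these data known. Named genes were, in each complex, the ends of the log2FC range, the smallest p, the highest level per kb and core subunits, all tested paralogs, and from other lists the smallest p and those called against the majority; other genes named were chosen after their values were seen. Alternatives were other scalings, filters, DESeq2 1.42.0, limma-voom 3.58.1, a replicate block and leaving out each library. Promoter sequences were not analysed here.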

Additional observations from a re-analysis of the deposited data

How the results depend on the processing

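Of the settings tried, 2 changed the count of main subunits called higher. Scaled by library size alone, 26 of 62 were called, against 62, and the median log2FC was 0.45. By complex the counts and medians were then 12 and 0.39 in complex I, 1 and 0.14 in complex II, 5 and 0.64 in complex III, 1 and 0.46 in complex IV, and 7 and 0.63 in complex V. On this scale 14.0% of all genes were called higher. Without the 10 most abundant genes in the library total, 54 were called and the median was 0.80, with 0.74 in complex I, 0.49 in complex II (2 of 4 called), 0.99 in complex III, 0.81 in complex IV and 0.97 in complex V. Over all genes, the share of calls that were higher was 49.5% after TMM scaling, 18.3% with library size and 25.8% without these 10 genes. Upper quartile scaling kept 62 calls, with a median of 1.36 and 1.55 in complex III. RLE size factors, DESeq2, limma-voom, no filter and a filter of 1 CPM in 3 libraries also gave 62 calls. Leaving out 1 library at a time, the median of complex III ran from 1.59 to 1.87.

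When library size alone set the scale, the sign changed for ND-20 (-0.13), UQCR-11 (-0.025), SdhA (-0.000793), ATPsynbetaL (-0.44, and -0.10 without the 10 most abundant genes), mRpS7 (-0.11), Sdhaf3 (-0.31) and the medians of assembly factors (-0.18) and mitochondrial ribosomal proteins (-0.17). SdhBL ran from -0.83 to 0.42 as 1 library was left out, with 0.42 without B-D replicate 3 and 0.12 without SG replicate 2. The cause was not tested.

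A replicate block left 62 of 62 main subunits higher, with a median of 1.54, and the calls of COX5BL (adjusted p = 0.107 by edgeR), Cyt-c-d and RpS19b were lost, and no other call of a gene named changed. The promoter window alternative was not run. The paralogs tested had 0 to 217 counts per library.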

Other observations

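The 4 main subunits that were higher in SG replicate 3 than in SG replicate 1 lie in particular parts of the genome. ND-49 lies on chromosome 4 (568296 to 571554, Release 6), and ND-MLRQ (23339326 to 23345936), ND-AGGG (24976254 to 24977118) and UQCR-11 (25120709 to 25126171) lie in the part of chromosome arm 3L nearest the centromere. Their log2 ratios of replicate 3 to replicate 1 in SG were 0.06, 0.18, 0.55 and 0.50. ATPsynbeta, the other main subunit on chromosome 4 (1031484 to 1034917), was close to 0 in both tissues. The limit on 3L was set at 23000000 after these values were seen. Over all genes with at least 1 CPM in these 4 libraries, the 75 genes of chromosome 4 had a median ratio of 0.49 in SG and 0.18 in B-D, and the 25 genes of 3L beyond the limit had 0.46 and 0.17, beside 0.02 and -0.01 over the 8005 genes. Mitochondrial ribosomal protein genes were at -0.42 and -0.22 and cytosolic ribosomal protein genes at -0.45 and -0.23, near the -0.45 and -0.27 of the OXPHOS main subunits. Transcripts of the mitochondrial genome were at 0.46 and 0.05. These are values of 4 libraries with no test.

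By chromosome, the median log2FC of SG over B-D of main subunits was 1.63 on 2L, 1.56 on 2R, 1.498 on 3L, 1.58 on 3R, 1.52 on X and 1.38 on chromosome 4, where there are 2 members, and the ranges overlapped.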
